A study of Homo sapiens with 2 samples.

Results

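DNA methylation was examined at 10 genes for regulators of the mesenchymal state of neuroblastoma: PRRX1, TWIST1, SNAI2, FOSL1, FOSL2, RUNX1, RUNX2, MEOX1, MEOX2 and WWTR1. A CpG was counted for a gene when the deposited annotation listed that gene as its promoter gene, or as its gene outside intergenic sequence. This gave 2035 of the 2773807 positions in the table, of which 1801 had at least 10 reads in both libraries and whole methylated reads that could be recovered. The whole table held 2515936 such CpGs. The samples were cells of SH-SY5Y, a human neuroblastoma line, given either the solvent DMSO (control) or Mdivi-1, a small molecule described as an inhibitor of mitochondrial fission. Dose and exposure time were not given in the sources used here. Each group was 1 library of captured, bisulfite-converted DNA, in which methylated cytosines are read as C and unmethylated ones as T, 2 libraries in all. No difference below therefore has a replicate check, and errors cover the counting of reads, some of which may share a PCR origin.

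Neuroblastoma cells can occupy an adrenergic state, run by sympathetic regulators such as HAND2 and GATA3, or a mesenchymal, neural crest-like state in which the genes studied here are characteristic regulators. DNA methylation at cytosines followed by guanine (CpGs) is usually low over CpG islands, the CpG-dense stretches at many gene starts, and high elsewhere, and dense methylation at a start commonly accompanies a silent gene. Developmental regulators are often marked by other chromatin layers while their islands stay unmethylated. Expression was not measured in these libraries, so the state of the cells could not be checked, and a low methylation level is no measure of activity.

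The genes differed most in how methylated their starts already were. With all promoter CpGs of a gene averaged together, promoter methylation in the control ran from 1.67% at SNAI2 to 73.3% at WWTR1, whereas the differences between the libraries ran from -0.440 points at FOSL1 to 4.22 points at MEOX1. Taken separately, the distal promoters of RUNX1 and RUNX2, with 9 and 5 CpGs, differed by -2.26 and 5.25 points. FOSL2 and SNAI2 were nearly free of methylation, the WWTR1 island was methylated almost throughout, and RUNX2 held a low proximal and a high distal promoter. The values for MEOX1 and MEOX2 stood furthest from the control across the gene as a whole, by 6.64 and 3.22 points, or 2.90 and 2.23 points at a minimum of 20 reads, where FOSL1 at -2.54 and SNAI2 at 2.22 points stood about as far. None of the 1801 CpGs passed the test, and no 1 kb window or promoter met the rule of size given below. Table-wide, 16 of 2515936 CpGs passed the test. The rule was met by 0.581% of all 1 kb windows upward and 0.375% downward, and by 0.145% and 0.149% of all promoters. Finding none here therefore does not set these genes apart from the table as a whole.

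Promoter sequences are shown for genes from low to high in this range, though not for SNAI2, since the number of CpGs differs as widely as the methylation. They are the 250 bases before a start in the RefSeq promoter table (build GRCh38.p14), 5′ to 3′, with CpGs in capitals. The methylation values are on hg19, and positions were not carried between the builds.
FOSL2, chr2:28392608-28392857, + strand: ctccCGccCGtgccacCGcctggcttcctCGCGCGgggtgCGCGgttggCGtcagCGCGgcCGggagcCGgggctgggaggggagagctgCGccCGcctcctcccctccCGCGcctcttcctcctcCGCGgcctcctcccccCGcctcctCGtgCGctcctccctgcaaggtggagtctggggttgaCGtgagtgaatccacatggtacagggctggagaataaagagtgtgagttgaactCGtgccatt
RUNX2 proximal, chr6:45422025-45422274, + strand: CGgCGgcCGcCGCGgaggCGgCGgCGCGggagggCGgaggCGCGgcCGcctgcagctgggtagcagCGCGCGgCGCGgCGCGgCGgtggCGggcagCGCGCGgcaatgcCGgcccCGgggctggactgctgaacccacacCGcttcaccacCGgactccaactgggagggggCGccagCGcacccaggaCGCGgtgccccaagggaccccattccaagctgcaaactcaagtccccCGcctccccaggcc
RUNX2 distal, chr6:45328080-45328329, + strand: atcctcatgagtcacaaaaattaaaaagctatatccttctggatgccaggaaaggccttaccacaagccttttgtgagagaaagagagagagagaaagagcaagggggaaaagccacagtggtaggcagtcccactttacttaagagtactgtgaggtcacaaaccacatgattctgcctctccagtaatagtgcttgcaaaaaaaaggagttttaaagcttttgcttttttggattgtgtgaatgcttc
MEOX2, chr7:15686684-15686933, - strand: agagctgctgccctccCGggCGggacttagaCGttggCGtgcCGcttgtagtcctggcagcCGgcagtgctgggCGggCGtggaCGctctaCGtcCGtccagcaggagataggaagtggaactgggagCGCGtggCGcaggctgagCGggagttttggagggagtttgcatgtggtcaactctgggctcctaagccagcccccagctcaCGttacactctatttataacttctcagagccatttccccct
WWTR1 main, chr3:149658026-149658275, - strand: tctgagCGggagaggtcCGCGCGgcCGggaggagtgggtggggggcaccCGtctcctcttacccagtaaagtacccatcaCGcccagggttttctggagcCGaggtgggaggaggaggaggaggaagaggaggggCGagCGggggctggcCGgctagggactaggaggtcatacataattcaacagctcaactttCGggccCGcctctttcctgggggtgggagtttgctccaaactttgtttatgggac
FOSL2 has 24 CpGs in this stretch and the proximal RUNX2 promoter 34, more than 76.3% and 93.2% of the 35116 promoters in the table. MEOX2 has 16 and WWTR1 13, close to the median of 11, and the distal RUNX2 promoter has 0. RUNX1 (proximal) has 32 and PRRX1 6. Entries of 6 of the 10 genes were used. TWIST1, FOSL1 and MEOX1 had no entry, and SNAI2 was left out before the entries were counted.

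The same stretches, 8 entries without SNAI2, were searched on both strands for the short motifs bound by the families of these factors. The AP-1 motif TGANTCA occurred once in the distal RUNX2 promoter and in 0 of the other 7 entries, against 6.57% of all promoters. The RUNX motif ACCACA occurred 2 times in the distal RUNX2 promoter and 1 time each at MEOX2 and in the distal WWTR1 promoter, against 10.98% of all promoters with a match. At MEOX2 and in the distal RUNX2 promoter an E-box, CANNTG, shares letters with a RUNX match, and 61.8% of all promoters hold an E-box. The TEAD motif GGAATG was found at RUNX1 and the proximal RUNX2 promoter (11.9% of all promoters) and the homeobox motif TAATTA in 0 of the 8 entries (4.35% of all). A match is a description of letters and not a binding site.

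Coverage of the 1801 CpGs averaged 35.6 control and 44.8 Mdivi-1 reads, somewhat below the 39.5 and 48.9 of all CpGs. Their mean methylation was 35.5% in the control and 36.5% with Mdivi-1, a difference of 0.934 points. Its counting error was 0.192 points if CpGs are read independently. It was 10.8 points if every read covered all CpGs of the set and was wholly methylated or wholly unmethylated. The second value is an upper limit that reads spread over 10 genes cannot reach, and errors for fully shared reads below are such limits. All CpGs of the table were at 42.6% and 43.1%. Under 20% methylation lay 49.8% of the CpGs of the 10 genes and 46.2% of all CpGs, and above 80% lay 21.2% and 33.3%. Pearson's r between the libraries was 0.976 across these CpGs and 0.984 across all, as a description, since CpGs are not replicates. The root mean square difference per CpG, 7.99 points, was no larger than the 8.15 points that counting alone gives. Over all CpGs it was 7.42 points, somewhat above the 7.18 points from counting. Errors after ± below are counting errors for independent CpGs.

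**Figure D1:**
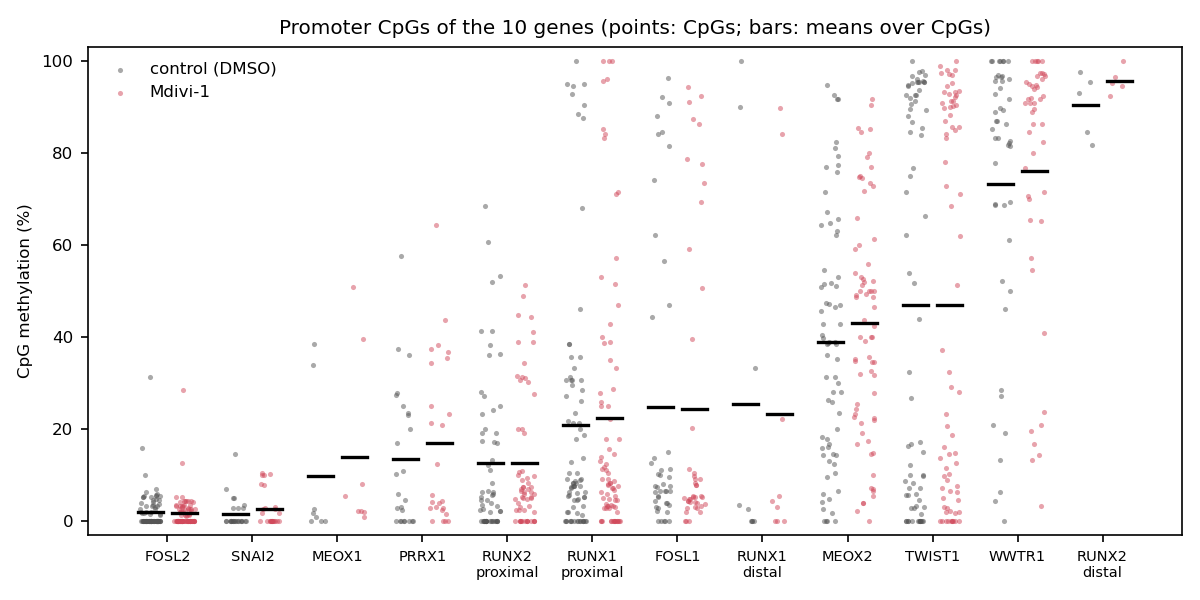
Methylation (%, vertical axis) of each promoter CpG in the control (grey) and Mdivi-1 (red) library, by promoter, with black bars for the mean over CpGs. FOSL2 and SNAI2 lie near 0, the distal RUNX2 promoter lies above 80%, and the bars of the 2 libraries lie within 6 points of each other at each promoter.

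PRRX1, a paired-related homeobox factor of mesenchyme whose expression can move neuroblastoma cells towards the mesenchymal state, had no CpG annotated to an island. Its gene CpGs were at 17.5% in the control and 18.8% with Mdivi-1 over 185 CpGs, a difference of 1.33 ± 0.529 points, or 0.840 points with all reads pooled. The 25 promoter CpGs (chromosome 1, 170631332 to 170632774, hg19) were at 13.4% and 17.0%, a difference of 3.58 ± 1.42 points with 15 CpGs higher and 6 lower. That difference sat in the intergenic shore, at 15.8% and 20.1% over 21 CpGs. The 4 CpGs annotated upstream were at 0.610% and 0.735%, and without the intergenic CpGs the promoter difference was 0.126 points. From 1750 to 2000 bases before the start, 9 of 11 CpGs were higher, at 22.3% and 29.0%.

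Downstream of the PRRX1 start, methylation stayed low through the first exon and into the intron. From 500 to 750 bases after the start the level was 12.6% in the control and 18.95% with Mdivi-1 over 21 CpGs, with 16 higher and 5 lower. From 1000 to 1250 bases it was 95.5% and 91.1% over 6 CpGs at 14 and 13.2 reads, and from 1500 to 1750 bases 33.4% and 36.6% over 5, so the high values form a patch in both libraries. The 73 intronic shelf CpGs differed by 3.45 ± 0.869 points from 19.96%, and the 15 intronic shore CpGs by -4.55 ± 3.32 points from 45.7%, so PRRX1 had no single direction. Its window of largest difference (170637652 to 170637838, intronic) was at 26.8% and 33.0% over 16 CpGs.

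MEOX1, a homeobox factor of somites and the sclerotome, had only 8 promoter CpGs, none in an island (chromosome 17, 41739131 to 41740043). They were at 9.72% in the control and 13.9% with Mdivi-1, a difference of 4.22 ± 1.88 points, or 5.04 points of error if all reads were shared, and 2.30 points with reads pooled. All 8 CpGs were higher with Mdivi-1, most by very little. The CpG at 41739131 in the 5′ UTR was at 33.96% of 53 reads and 50.8% of 63 reads, and the CpG at 41739927 at 38.5% of 52 and 39.6% of 53. The other 6 were at 0 to 2.56% in the control and at 0.807 to 8.16% with Mdivi-1. So 2 partly methylated CpGs stood above the other CpGs of the MEOX1 start in both libraries.

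Most measured MEOX1 CpGs lay in an intronic island of intermediate methylation (41723221 to 41723826). Its 37 CpGs were at 53.4% and 60.9%, a difference of 7.50 ± 2.19 points, with 24 higher and 12 lower. This value rested on thinly covered CpGs: at a minimum of 20 reads 23 CpGs remained and the difference was 1.45 points. The surrounding window of 46 CpGs, the largest difference at MEOX1, was at 54.7% and 61.9%, and at the same minimum differed by 1.75 points. Over all 62 CpGs of the gene the levels were 48.8% and 55.4%, a difference of 6.64 ± 1.49 points, with 2.90 points at 20 reads. The higher value in the Mdivi-1 library kept its sign at either coverage minimum, while its size did not hold.

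MEOX2, the paralog of MEOX1 expressed in somites and vascular cells, had no island either and was intermediate across its start. Its 70 promoter CpGs (chromosome 7, 15726349 to 15728234) were at 38.9% in the control and 43.0% with Mdivi-1, a difference of 4.10 ± 1.20 points with 50 CpGs higher and 19 lower. Pooled reads, which weight deep CpGs more, gave 1.40 points, and all of these CpGs also name the noncoding gene LINC02587. The 8 CpGs of the 5′ UTR were at 6.29% and 12.3%, with 7 higher and 0 lower, and the 24 exonic CpGs were at 60.0% and 64.2%. The 39 intronic CpGs, at 63.3% and 63.6%, differed by 0.329 ± 1.19 points. Windows within MEOX2 varied: 8 intronic CpGs (15724561 to 15724716) differed by 4.18 ± 2.34 points, about as much as the promoter, and the upstream window at 15727019 to 15727604 by 0.604 points.

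Of all windows in the 10 genes, the one furthest from the control was at MEOX2 (15728077 to 15728588), where 8 CpGs were at 13.4% and 21.4%, a difference of 8.04 ± 2.96 points with 7 higher and 0 lower. The error with fully shared reads was 8.70 points. In 500 bp windows, 20 CpGs across the first exon and start (15726017 to 15726497) were at 20.99% and 32.4%. That difference of 11.4 ± 2.67 points, with 18 CpGs higher and 1 lower, met the rule of size, as did 0.763% of all 500 bp windows upward. In the 1 kb window around it 46 CpGs differed by 6.20 points. For the 20 CpGs the fully shared error was 13.5 points, and they had 19.6 and 23.6 reads on average. Over all 145 CpGs MEOX2 was at 46.5% and 49.8%, and CpGs that name no other gene differed by 2.05 points.

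**Figure D2:**
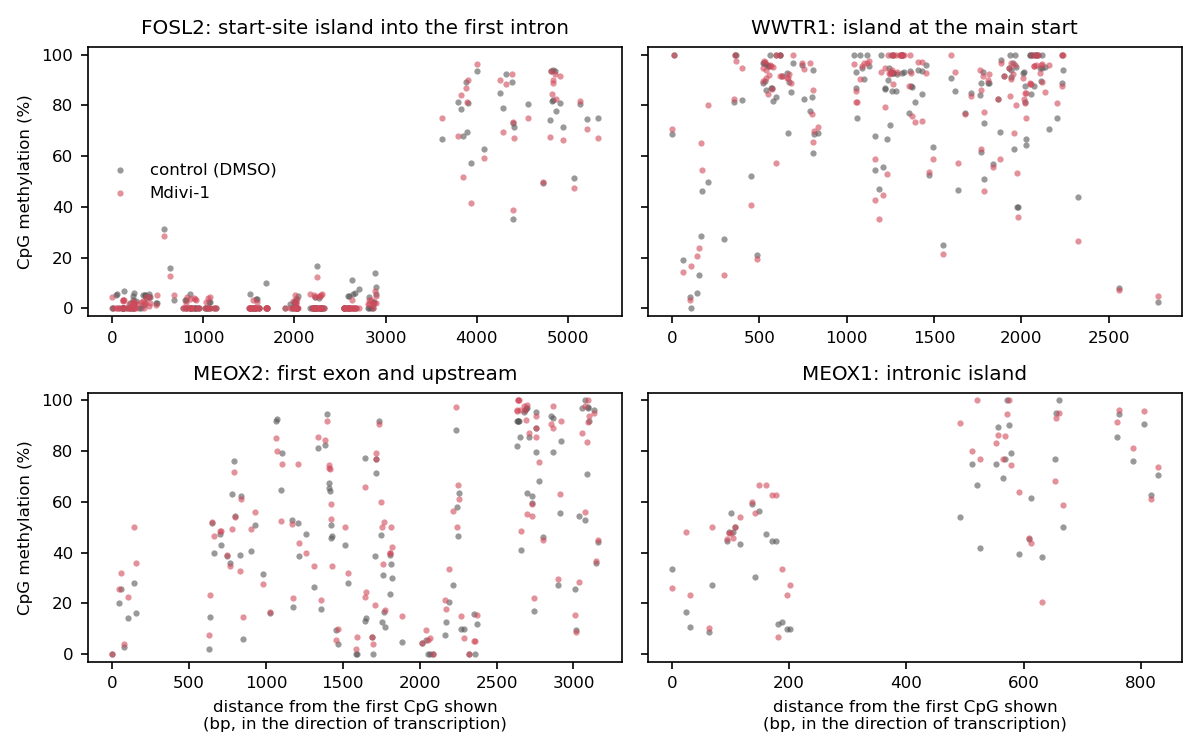
Methylation (%) of each CpG against distance in the direction of transcription (bp) from the first CpG shown, control in grey and Mdivi-1 in red, at FOSL2, WWTR1, MEOX2 and the MEOX1 intronic island. FOSL2 stays near 0 and steps up after its island, WWTR1 is high across its island, and both MEOX genes lie in between with wide scatter from CpG to CpG.

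TWIST1, a basic helix-loop-helix factor of neural crest and epithelial-mesenchymal transition, combined an unmethylated island with densely methylated sequence upstream. Its start-site island (chromosome 7, 19156052 to 19158042) averaged 4.13% in the control and 4.64% with Mdivi-1 over 84 CpGs, and the 34 exonic island CpGs at 1.03% and 1.21%. Upstream of the start the level climbed in steps. From 500 to 750 bases it was 8.23% and 11.4%, from 750 to 1000 bases 52.3% and 47.4%, and from 1000 to 1250 bases 91.6% and 91.3%. The border of methylation thus lay in the same 250 bases in both libraries.

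On the low side of that border 16 of 18 TWIST1 CpGs were higher with Mdivi-1, by 3.17 ± 1.16 points, and on it 7 of 8 were lower, by -4.92 ± 3.74 points. A second island downstream of the gene (19151968 to 19152287) was at 91.3% and 92.1% over 31 CpGs, so the 2 TWIST1 islands held opposite levels. The 73 promoter CpGs averaged 46.98% and 46.9%, a mean that few single CpGs share, and differed by -0.0900 ± 0.741 points, or -2.50 points with pooled reads. Its window of largest difference (19158002 to 19158955) gave -1.87 ± 1.38 points, and -5.08 points with pooled reads. Over 162 CpGs the gene differed by 0.214 ± 0.445 points, and by -0.910 with pooled reads.

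SNAI2, the zinc-finger repressor SLUG of epithelial-mesenchymal transition and neural crest, had the least methylated promoter of the set, and 12.9% of all measured promoters were lower. Its 26 promoter CpGs (chromosome 8, 49834317 to 49835969) were at 1.67% and 2.76%, a difference of 1.09 ± 0.801 points, or 0.412 points at a minimum of 20 reads. The 19 CpGs of the 5′ UTR were at 1.31% and 1.90%. Inside the gene the level went up: from 500 to 750 bases after the start it was 19.1% and 24.9% over 7 CpGs, and from 1000 to 1250 bases 82.9% and 79.1% over 4. Its 11 intronic CpGs, at 16.9% and 22.6%, differed by 5.67 ± 2.45 points with 7 higher and 1 lower. Among windows, the largest difference (49833185 to 49833949) was 2.31 ± 0.956 points over 34 CpGs, and 4.72 points with pooled reads. Over all 72 CpGs SNAI2 was at 15.7% and 17.5%.

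**Figure D3:**
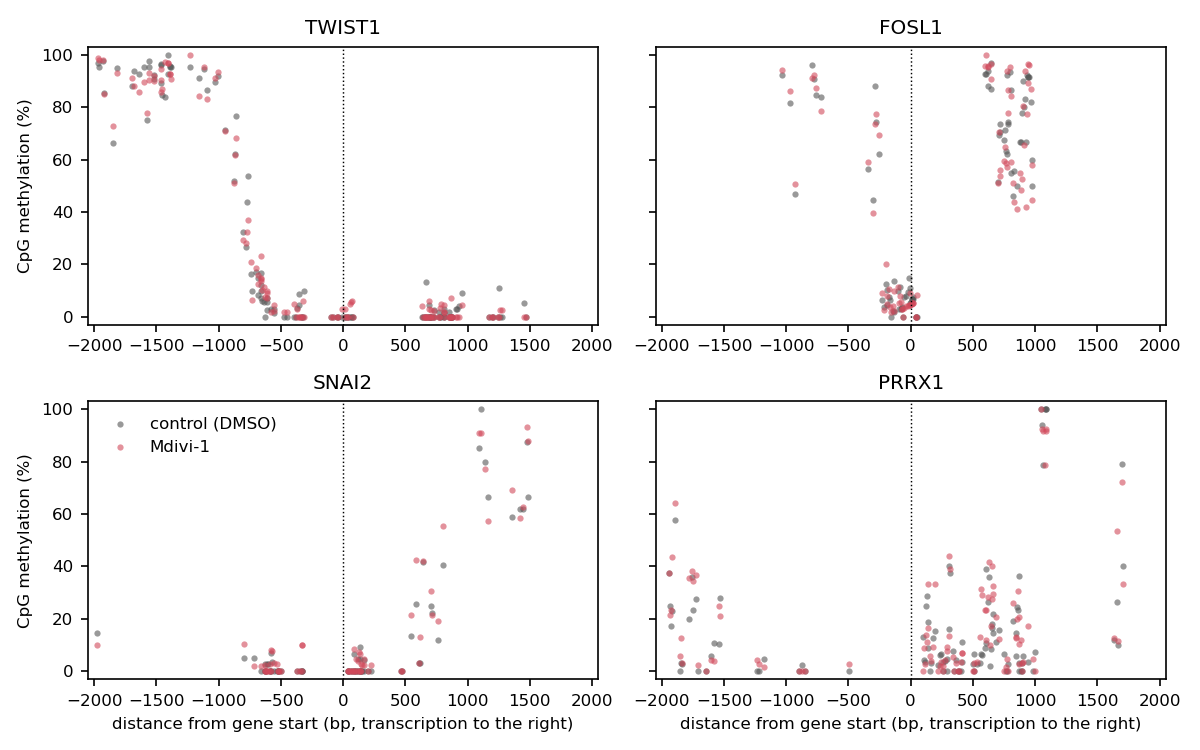
Methylation (%) of each CpG against distance from the gene start (bp, transcription to the right; dotted line at 0) at TWIST1, FOSL1, SNAI2 and PRRX1, control in grey and Mdivi-1 in red. The red and grey points change level at the same distances, upstream at TWIST1 and FOSL1 and downstream at SNAI2, and PRRX1 has a short patch of high CpGs downstream.

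FOSL1 and FOSL2 encode FRA1 and FRA2, AP-1 subunits that bind DNA as dimers with JUN proteins. They differed greatly in their islands. At FOSL2 the start-site island (chromosome 2, 28613763 to 28616657) averaged 2.03% in the control and 1.66% with Mdivi-1 over 146 CpGs, a difference of -0.366 ± 0.256 points. The 27 intronic shore CpGs beyond it were at 77.2% and 76.3%. The 86 promoter CpGs, which the annotation places in an intron of a noncoding RNA gene, were at 2.05% and 1.70%. The FOSL2 sequence shown above, with 24 CpGs in 250 bases, is among the denser of those printed.

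Over all 192 CpGs FOSL2 was at 20.1% and 19.9%, a difference of -0.175 ± 0.319 points. Pooled reads gave -1.39 points, and leaving out CpGs that also name another gene turned the sign, to 0.369 points. Its window of largest difference lay in the 3′ UTR (28636026 to 28636792), where 6 CpGs were at 74.1% and 77.0%, and pooled reads gave -2.27 points. No direction can be given for FOSL2 from these values.

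The FOSL1 start was low over a much shorter stretch. Its 23 upstream island CpGs were at 6.71% and 5.80%, and the 8 CpGs just after the start at 4.16% and 4.24%. Going upstream, the level stepped within 24 bases from 6.49% of 77 reads to 62.2% of 74 reads in the control, and from 9.21% of 76 reads to 69.4% of 85 reads with Mdivi-1. Further CpGs annotated as island lay in the first intron, where 37 CpGs (chromosome 11, 65667024 to 65667398) were at 75.6% and 72.1%, a difference of -3.57 ± 1.84 points. Island CpGs of FOSL1 were thus low at the start and high in the intron, and whether they belong to the same island is not given by the annotation.

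The 44 promoter CpGs of FOSL1 were at 24.9% and 24.5%, a difference of -0.440 ± 0.952 points that became 3.83 points with pooled reads. Over its 89 CpGs the difference was -1.76 ± 0.965 points, and 1.66 points with pooled reads. All 3 windows of FOSL1 were lower, the largest difference (65664245 to 65664342, 7 CpGs at 83.9% and 80.9%) being -3.03 ± 3.53 points. The sign of the FOSL1 totals depended on how reads were weighted.

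RUNX1 and RUNX2 encode Runt-domain factors of blood and bone that bind DNA with CBFB, each from a distal and a proximal promoter. At RUNX1 the 80 proximal promoter CpGs (chromosome 21, 36261011 to 36262957) were at 20.9% in the control and 22.3% with Mdivi-1, a difference of 1.42 ± 0.958 points, and both promoters together differed by 1.05 points, or 0.0473 points at a minimum of 20 reads. The 9 distal ones (36421858 to 36422665) were at 25.5% and 23.2%, but pooled reads gave a difference of 11.4 points. The 6 distal CpGs nearest the start were at 1.03% and 2.17%, and the 2 of the next group, 750 to 1000 bases upstream, at 95% and 87.0%. Neither RUNX1 promoter was therefore evenly methylated, and the distal mean rests on few CpGs.

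The 4 islands of RUNX1 were intermediate to high in level, with differences of both signs. The island at the 3′ end (36164146 to 36164934) was at 73.9% and 68.9% over 13 CpGs, a difference of -5.01 points that was -0.862 points with a minimum of 5 reads, and the island at the proximal exon (36258954 to 36259472) at 49.7% and 44.7% over 32. The third island (36262957 to 36263687) was at 55.4% and 59.0% over 37 CpGs, and its difference of 3.63 points became -0.869 points with a minimum of 5 reads. The fourth (36398962 to 36399259), deep in the intron between the promoters, was at 48.3% and 57.1%, a difference of 8.78 ± 1.87 points with 25 of 31 CpGs higher and a fully shared error of 10.7 points. Within the 3′ UTR part of the first island all 7 CpGs were lower, at 83.7% and 73.0%.

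The largest window difference at RUNX1 lay in intronic sequence (36229114 to 36229637), where 6 CpGs were at 2.36% and 10.02%, a difference of 7.66 ± 2.54 points, and 4.39 points with pooled reads. Over all 365 CpGs RUNX1 was at 31.98% and 33.1%, a difference of 1.11 ± 0.492 points (0.654 with a minimum of 5 reads), with 10 windows higher and 8 lower.

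RUNX2 showed the contrast between promoters most plainly. Its 61 proximal promoter CpGs (chromosome 6, 45388029 to 45389999) were at 12.8% and 12.6%, and its 5 distal ones (45294600 to 45295369) at 90.5% and 95.7%. The distal CpGs ranged from 81.8 to 97.5% in the control and from 92.3 to 100% with Mdivi-1. The distal difference of 5.25 ± 3.62 points had 4 CpGs higher and 1 lower and was 1.72 points at a minimum of 20 reads, and the smallest exact two-sided Fisher p among them was 0.498 before adjustment. In the sequences shown above the proximal promoter has 34 CpGs and the distal one 0. Where the 5 measured distal CpGs lie relative to that stretch was not determined.

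Islands of RUNX2 were low to intermediate. The island of 35 CpGs at 45345187 to 45346261, which lies near the start of the opposing gene SUPT3H, was at 9.51% and 9.35%, a difference of -0.164 points, or -2.73 points with pooled reads. The island before the proximal promoter (45387370 to 45388164) was at 33.7% and 31.7% over 45 CpGs, a difference of -1.96 points that became 2.73 points with pooled reads and 0.326 points at a minimum of 20 reads. Its window of largest difference (45451512 to 45451666) gave -4.60 ± 3.49 points over 5 CpGs, at 17.95% and 13.4%. Over all 306 CpGs the gene was at 20.5% and 19.9%, a difference of -0.567 ± 0.446 points, and 0.550 points with pooled reads.

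WWTR1 encodes TAZ, a coactivator of the Hippo pathway that acts through TEAD factors and does not itself bind DNA. Its main island (chromosome 3, 149374711 to 149376300) averaged 85.2% in the control and 85.0% with Mdivi-1 over 117 CpGs, the most methylated start-site island of the set. The 28 island CpGs in its 5′ UTR were at 85.7% and 84.7%, whereas all 107174 CpGs of this annotation in the table averaged 11.1% and 11.2%. The WWTR1 promoter was more methylated than 86.9% of the 23511 promoters measured. So the island was methylated nearly throughout in both libraries, which differed by -0.200 ± 0.901 points over it, or -1.62 points at a minimum of 20 reads.

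Its 47 main promoter CpGs (149376013 to 149376848) were at 73.3% and 76.0%, a difference of 2.73 ± 1.497 points. These CpGs are also annotated to the antisense gene WWTR1-AS1, whose methylation cannot be told apart from that of WWTR1 here. The level dropped upstream: 24 island CpGs were at 87.0% and 87.9%, while 11 shore CpGs further out were at 33.1% and 42.1%. With the distal promoter, where 1 CpG was at 75.5% and 77.1%, the promoter differed by 2.71 points, and by -0.190 points with pooled reads. The 68 intronic CpGs outside islands were at 68.98% and 71.9%, with 48 higher and 20 lower. Over all 223 CpGs WWTR1 was at 75.7% and 77.3%, a difference of 1.55 ± 0.631 points, or 3.22 points in CpGs that name no other gene and 0.513 points at a minimum of 20 reads. The largest window difference (149389023 to 149389444, intronic) was 6.15 ± 4.37 points over 6 CpGs, and 3.77 points at that minimum.

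Windows of 1 kb were then compared by a rule of size: at least 5 CpGs, a mean difference of 10 points or more, and 80% of the CpGs on the same side. Of 69 windows in the 10 genes, 0 met it, while 0.581% of all 122940 windows met it upward and 0.375% downward. The windows of the 10 genes ranged from -5.19 points at PRRX1 to 8.04 points at MEOX2. By sign, 41 were higher and 28 lower, or 59.4% higher against 58.7% of all windows, and 13.0% differed by 5 points or more against 9.43% of all. Their median was 0.671 points and that of all windows 0.354. With 500 bp windows 1 window, that of MEOX2 given above, met the rule, against 0.763% of all such windows upward. With a minimum of 3 CpGs 1 window met it, in the MEOX1 exon (41720948 to 41720984) at 64.2% and 77.4%, against 1.04% of all upward. These single windows are too few to set the 10 genes apart from such shares.

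**Figure D4:**
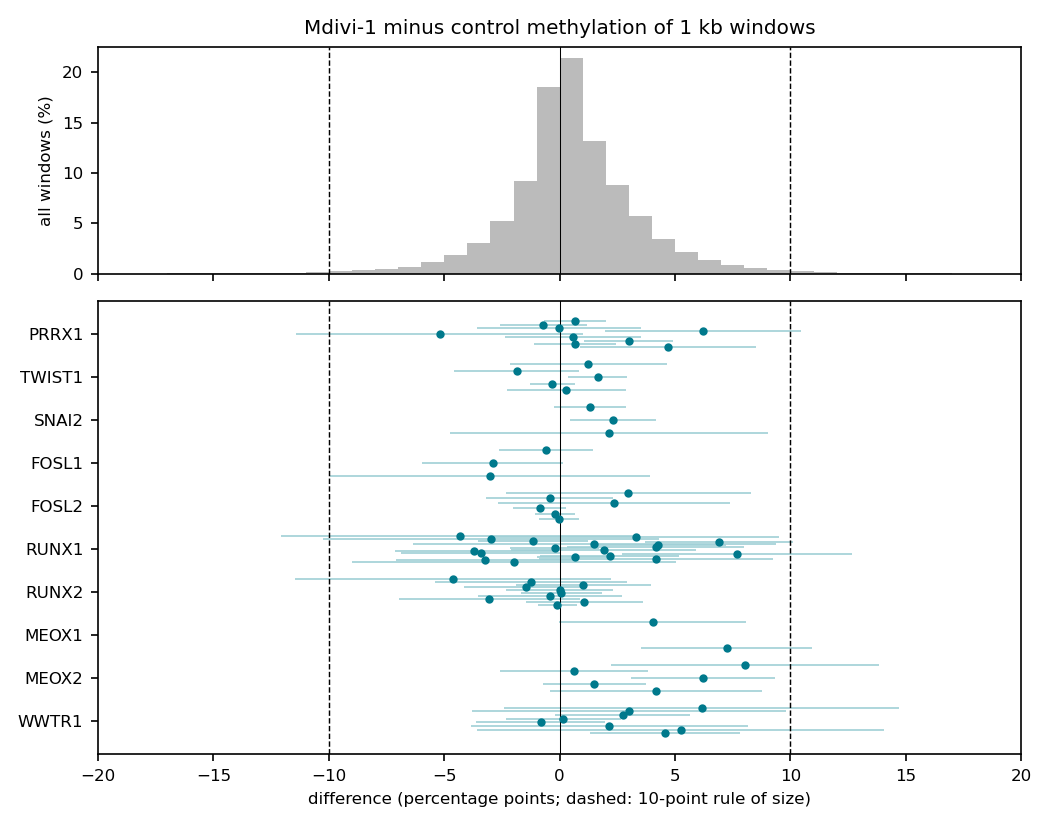
Mdivi-1 minus control methylation (percentage points, horizontal axis) of 1 kb windows: above, the share of all windows (%) per point, and below, each window of the 10 genes with a line for its 95% counting interval (independent CpGs). The 69 windows lie between -5.19 and 8.04 points, inside the dashed lines of the 10-point rule.

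Single CpGs were compared by exact two-sided Fisher tests of the reads, which compare these 2 libraries and not the conditions. With Benjamini-Hochberg adjustment over all 2515936 CpGs, an adjusted p under 0.05 and a difference of 20 points, 0 of the 1801 CpGs were called. Table-wide, 10 CpGs were called higher (3.97e-04%) and 6 lower (2.38e-04%). Before adjustment 36 of the 1801 had a Fisher p under 0.05, and the share of all CpGs that did was 2.02%. By size alone 58 CpGs, or 3.22%, differed by 20 points or more, against 2.75% of all. Of the 1801, 872 were higher, 667 lower and the rest equal.

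The smallest exact Fisher p was at RUNX1 (36164954, intronic shore), with 18 of 25 reads methylated in the control and 30 of 30 with Mdivi-1. Its p was 0.00237 before and 1 after adjustment. At WWTR1 (149251635, intronic) the counts were 9 of 13 and 28 of 28, at RUNX2 (45388628, intronic shore) 33 of 62 and 28 of 89, and at MEOX2 (15726017, exonic) 9 of 33 and 22 of 39. Their exact Fisher p values were 0.00706, 0.0112 and 0.0173. At TWIST1 (19157884, upstream island) 0 of 71 and 8 of 104 reads were methylated, and the 0 allows a level of up to 5.13% (95% Wilson interval). At PRRX1 (170633839, intronic) the counts were 2 of 30 and 10 of 32, and at MEOX1 (41720971, exonic) 18 of 29 and 33 of 38. The smallest exact Fisher p was 0.0403 at FOSL2 (28613997, 4 of 64 and 0 of 77), 0.0555 at FOSL1 (65668285, 51 of 58 and 61 of 83) and 0.0858 at SNAI2 (49832502, 14 of 21 and 36 of 41). The adjusted p was 1 at each of these.

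The rule of size was also applied to promoters, and 0 of the 10 met it, against 0.145% of 23511 promoters upward and 0.149% downward. Their median difference was 1.07 points, with 7 higher and 3 lower, beside 0.203 points for all promoters, of which 13696 of 23511 were higher, but it was 0.230 points at a minimum of 20 reads. Their median control level of 20% was close to the 18.95% of all.

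Other genes of the pathway were taken from 3 lists. Of 33 further mesenchymal-state genes 32 had a measured promoter, with a median control level of 12.1%; 15 were higher and 17 lower, and the median difference was -0.0735 points, or 0.361 points with pooled reads. High control levels, of 50% or more, were found at 22.5% of all promoters and at 4 of these (12.5%): ZFP36L1, an mRNA-decay factor, at 74.96%, SMAD3, the TGF-beta effector, at 69.5%, TWIST2 at 59.7%, and VIM, which encodes vimentin, at 56.2%. The largest absolute differences were 4.07 ± 1.78 points at CD44, the hyaluronan receptor (6.48 with pooled reads), 2.95 ± 0.755 at ZFP36L1 (1.90) and 1.69 ± 0.963 at YAP1, the paralog of WWTR1 (1.43). YAP1, at 19.7% and 21.3%, was far less methylated at its promoter than WWTR1 in both libraries.

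The list of 19 dimer partners and cofactors also held family members, such as RUNX3, FOS and FOSB, and the LATS kinases. Its median control level was 6.43%, with 12 higher, 7 lower and a median difference of 0.271 points. RUNX3, a paralog of RUNX1 and RUNX2, was the one gene of the list (5.26%) above 50%, at 54.9%, against 21.4% at RUNX1 and 18.6% at RUNX2. These are means over all promoter CpGs of a gene. Taken separately, the distal and proximal RUNX2 promoters were at 90.5% and 12.8%. The JUN, JUNB, JUND, FOS and FOSB promoters were at 1.06 to 1.51% in the control, and that of FOSL2 at 2.05%. The FOSL1 promoter averaged 24.9%, with 6.71% at its 23 upstream island CpGs and 68.0% at its 12 upstream shore CpGs. The largest absolute differences were 1.71 points at TCF12, an E-protein partner of TWIST1 (3.20 with pooled reads), 1.69 points at YAP1 and -1.54 points at LATS2, the kinase upstream of TAZ. The lists overlap in CBFB, YAP1 and TEAD1 to TEAD4.

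The 19 adrenergic genes, regulators and enzymes of the opposite state, had a median promoter level of 6.51% in the control, with 9 higher, 10 lower and a median difference of -0.125 points. HAND2, GATA3 and ISL1 were at 1.16%, 0.802% and 1.04%. INSM1 at 78.7%, HAND1 at 69.1% and TH, which encodes tyrosine hydroxylase, at 52.3% lay above 50%, or 15.8% of the list. Among the larger absolute differences were 2.91 points at SIX3 (0.573 with pooled reads) and 1.68 points at EYA1 (6.48). In none of the 3 lists did a promoter meet the rule of size, and low as well as high promoters occurred in genes of both states.

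**Figure D5:**
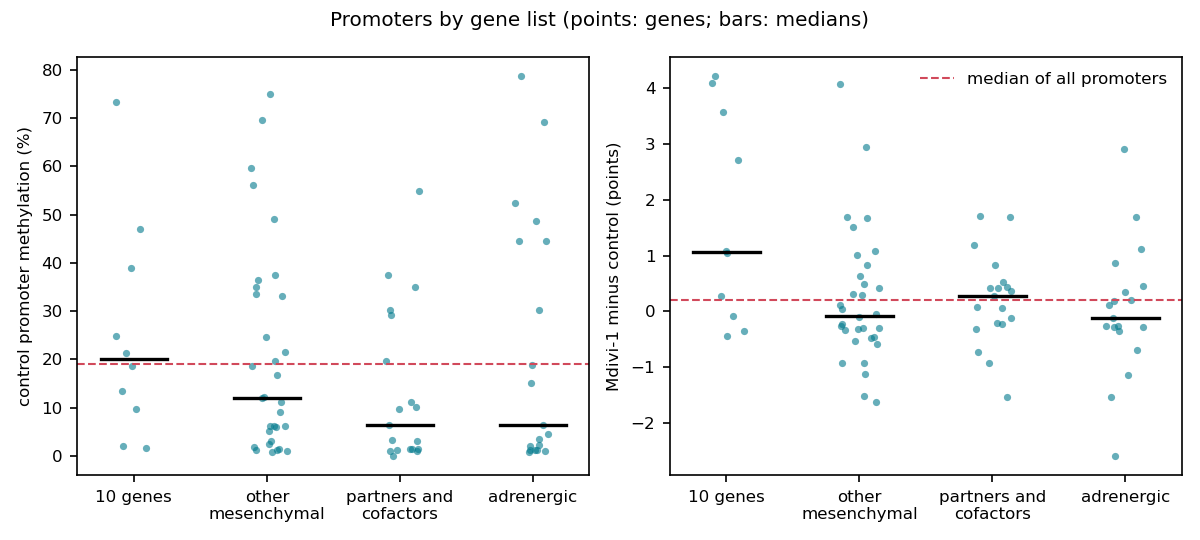
Control promoter methylation (%, left) and the Mdivi-1 minus control difference (percentage points, right) of each gene in the 4 lists, with black bars for list medians and a dashed line for the median of all promoters. Every list spans low and high levels, and the highest difference is 4.22 points, at MEOX1.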

How the data were processed

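SH-SY5Y DNA from 1 DMSO and 1 Mdivi-1 culture was captured with SureSelectXT Methyl-Seq and sequenced on an Illumina NovaSeq, per the labels' protocols. BSMAP and hg19 are named in the submitters' processing notes; the version, caller and filters are not given in the sources used here. RNA-seq was not analysed here. The table deposited by the authors gives, per position and library, a methylated fraction and the coverage, with gene and island annotation. The deposited coverage is an estimated count of reads, since 10751 positions are not whole. The deposited control fraction was whole for 33.3% of positions at its coverage and for 100% after multiplying coverage by 1.23, the ratio of median coverages 37 and 30. No source used here states this step. Methylated reads were recovered by undoing it, and 18552 positions (0.669%), 5 of them in the 10 genes, were left out.

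Levels are means over CpGs covered by 10 or more reads in each library. The control level was subtracted from that with Mdivi-1, giving percentage points, with binomial counting errors. Promoter CpGs that the annotation calls intergenic were included. The annotation gives each CpG a class, and island CpGs of a gene were joined into an island across gaps of up to 2 kb. Fisher tests were two-sided and exact, with Benjamini-Hochberg adjustment over all CpGs. Named are all 10 genes, the window of largest absolute difference and the CpG of smallest p of each, and from the other lists up to 3 genes of largest absolute promoter difference and promoters at 50% or more; other CpGs, islands, bins and genes named were chosen after their values were seen. Of the list genes so chosen, 1 is not reported here. The members and lists were chosen with earlier results of these data known. Alternatives were other coverage minimums, pooled reads, deposited fractions, other windows and CpG minimums, removal of the deepest 0.1% of CpGs and of CpGs shared with other genes. Leaving out intergenic promoter CpGs was added after seeing the data. Scripts were tested on simulated data. Tests used SciPy 1.17.1 and Numba 0.67.0, tables pandas 2.3.3 and NumPy 2.4.6, and figures Matplotlib 3.10.9, under Python 3.11.15.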

Additional observations from a re-analysis of the deposited data

How the results depend on the processing

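The mean difference over all CpGs of the 10 genes was 0.934 points and stayed positive under the 7 alternatives run for it, from 0.622 points with pooled reads to 1.01 points with the deposited fractions. The number of windows meeting the rule of size went from 0 to 1 with windows of 500 bp and to 1 with at least 3 CpGs, and was 0 under the others. Table-wide, 0.763% of windows met it upward with windows of 500 bp and 1.04% with at least 3 CpGs. The median promoter difference of the 10 genes was 0.230 points at a minimum of 20 reads, against 1.07 points, and that of the other mesenchymal genes 0.361 points with pooled reads, against -0.0735 points. Of 245 values of single genes, islands or windows under the alternatives, 224 lay within the 95% counting interval of the value reported and 21 did not, and 21 were of opposite sign. The causes were not tested. No paired analysis was possible because each group has 1 library, and for the same reason no library could be left out. With 1 library per group, a difference of any size, at any read depth, cannot be told apart from variation between cultures.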
